A study of Mus musculus with 17 samples.

Results

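Fat cell formation and lipid handling were followed through 8 genes in 17 single cells sorted from mouse back skin. The genes were chosen by name: the transcription factors Pparg, Cebpb and Cebpd, and the lipid genes Lpl, Plin2, Fabp4, Car3 and Cd36. All 8 had a row, among 8446 rows in the deposited table (8431 distinct gene symbols). Below, "measured" means having a row, and "all genes" means those with a row. A gene without a row may have been undetected or left out, which cannot be told apart here. The cells came from adult C57BL/6 mice of the genotype Prrx1-CreERT;Tomato, given tamoxifen at 2 mg per 30 g of body mass daily for 3 days. Tamoxifen switches on a Cre recombinase made under Prrx1 control, and cells with Cre activity then carry the red Tomato reporter permanently, so the reporter records activity at the time of tamoxifen and not at sorting. All 17 cells are Tomato-positive and form 1 group, with no untreated, Tomato-negative or undigested cells beside them and no animal named for any cell. The data therefore give levels and their spread over cells, and no p-value.

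Fat cells arise from mesenchymal progenitors, and in skin these include fibroblasts of the lower dermis. In the textbook sequence the factors C/EBP-beta and C/EBP-delta come early, and they lead to PPAR-gamma, a nuclear receptor that is the master regulator of fat cell formation. PPAR-gamma in turn raises genes for taking up, carrying and storing fatty acids, such as Lpl, Cd36, Fabp4 and Plin2. Fibroblasts, macrophages and the endothelium also use parts of this machinery.

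Levels below are log2 of FPKM plus 1, where FPKM is fragments scaled by transcript length and by library size, and "detected" means FPKM 1 or more, a level of 1. A stricter threshold of FPKM 10 is a level of 3.46. The sorted values were the same in every cell (within 0.0165 at levels above 3), so the number of genes past any threshold is set by the normalisation, and read depth is unknown. The number of genes at a cell's lowest value ranged from 871 in cell 14 to 1766 in cell 17. Over 223 genes under 2.5 in all cells, pairs of cells within the sets 1 to 5, 6 to 14 and 15 to 17 had a mean correlation of 0.275 and pairs across them 0.0985. The sets run in cell number order, were drawn from these values, and match no label. Cell 16 was the least like the others (median Spearman correlation 0.416, against 0.493 for cell 6). The labels name no cell type. Of 14 fibroblast markers 13 had a row, and 11 to 13 of these were present per cell, with Col3a1 (mean 11.15, SD 1.31) and Col1a2 (mean 10.98, SD 1.19) the highest.

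The early regulators and the lipid genes Plin2 and Lpl were present in nearly every cell, Fabp4 was split between high and near-absent cells, Car3 was high in 4 cells only, and Cd36 and Pparg were low throughout. In order of mean level the genes were Plin2 (5.41, SD 2.16), Cebpd (5.21, SD 1.97), Lpl (5.09, SD 2.26), Cebpb (4.85, SD 2.41), Fabp4 (3.82, SD 2.57), Car3 (1.57, SD 2.23), Cd36 (0.93, SD 0.90) and Pparg (0.30, SD 0.67), each over n = 17 cells. Each step between neighbours in this order was smaller than its SD over cells. That SD describes single cells, and whether the means differ was not tested. The widest step, from Fabp4 to Car3, was 2.25 with an SD of 2.60 over cells, and Fabp4 lay above Car3 in 14 of 17 cells. The step from Plin2 to Cebpd was 0.20 (SD 3.28), and Plin2 was the higher in 11 of 17 cells. The libraries came from a 3' end kit, in which reads fall near the end of a transcript whatever its length. Multiplying by exonic length moved Lpl to the top (6.25) and Fabp4 (3.84) above Cebpb (3.55), so the order of the 5 highest genes depends on that choice. That length joins all annotated exons, and for Fabp4 it is the whole gene span of 4489 bases. The move of Fabp4 may therefore come from an overlong length. Since the sorted values are the same in every cell, multiplying also need not undo the length scaling.

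**Figure D1:**
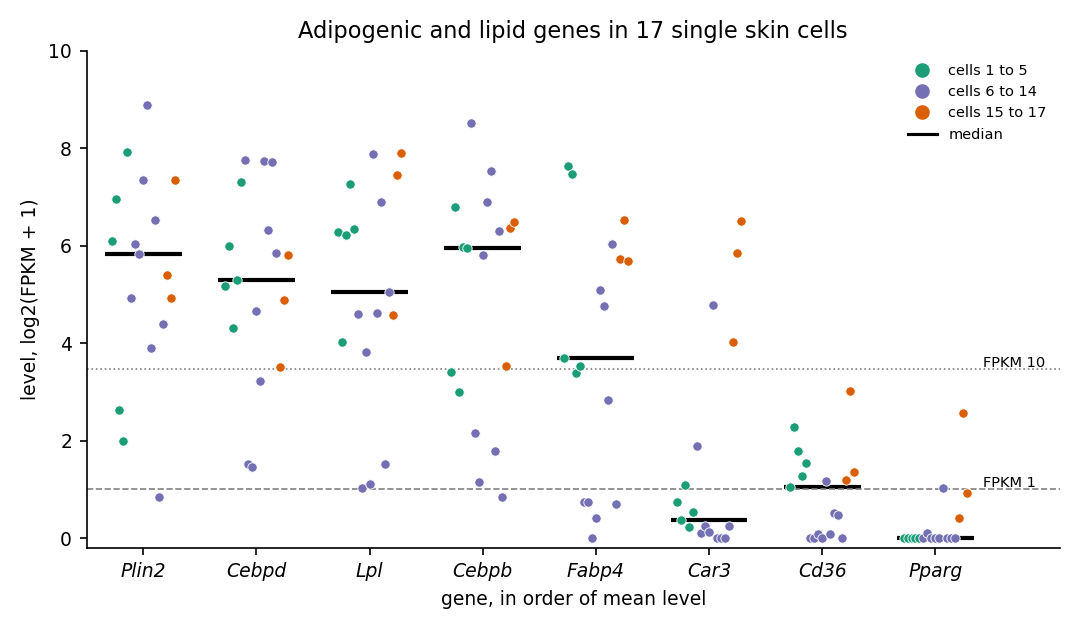
Each point is 1 cell, the vertical axis is the level as log2(FPKM + 1), the genes are in order of mean level, and the black line is the median over 17 cells. The dashed and dotted lines mark FPKM 1 and FPKM 10. Cd36 and Pparg have no point above FPKM 10, and Car3 has 4.

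Read against all genes, 6 of the 8 were detected in at least 9 cells (Cebpb, Cebpd, Lpl, Plin2, Fabp4 and Cd36), where 46.9% of all 8431 genes were. Cebpd and Lpl were detected in all 17 cells, as were 13% of all genes. At FPKM 10 or more in at least 9 cells there were 5, the same list without Cd36, against 26.6% of all genes. Pparg and Cd36 reached FPKM 10 in no cell, which held for 5.49% of all genes. The median gene was detected in 8 cells and the median of the 8 genes in 14. A cell had 3 to 8 of them detected (median 6, SD 1.42), with 3 in cell 14 and all 8 in cell 16. At FPKM 10 or more the median was 4, with 1 in cell 7, where Plin2 alone passed, and 6 in each of cells 15, 16 and 17.

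Cebpb and Cebpd encode sister transcription factors with a nearly identical DNA-contacting stretch. Their most alike 60 coding bases in frame are shown because reads from such a stretch could in principle be assigned to either gene. Capitals mark the 4 bases that differ, and the stretch is 93.3% identical. In the GRCm38 build, plus strand, they lie at chr2:167689703-167689762 for Cebpb and chr16:15887913-15887972 for Cebpd, within single-exon genes. The genes end further on, at 167690418 and 15891031. Reads from a 3' end kit fall near the end, so few may come from this stretch.
Cebpb: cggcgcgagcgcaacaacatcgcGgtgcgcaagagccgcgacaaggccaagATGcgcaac
Cebpd: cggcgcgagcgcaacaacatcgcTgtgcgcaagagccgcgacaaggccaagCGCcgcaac
None of the 1455 distinct 50-base stretches of Cebpb transcripts and none of the 3741 of Cebpd occurs in a transcript of any other gene in GENCODE M21. None was shared for Pparg, Fabp4, Car3 and Cd36. For Lpl 1.14% of stretches occurred elsewhere, and for Plin2 2.57%, all of these in the pseudogene Gm12551, which has no row of its own.

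Cebpb (ENSMUSG00000056501, chromosome 2, 167688915 to 167690418) passed FPKM 1 in 16 of 17 cells (interval 71.3% to 99.9%; this and the intervals below are exact at 95% and cover counting error over cells only) and was at FPKM 10 or more in 11. Its levels in cells 1 to 5 were 3.40, 6.79, 3.00, 5.98 and 5.95. In cells 6 to 14 they were 8.53, 2.16, 1.15, 5.81, 6.89, 7.54, 1.80, 6.29 and 0.84, and in cells 15 to 17 they were 3.54, 6.37 and 6.48. The gene was thus spread over almost the whole scale, with 4 cells (7, 8, 12 and 14) under 2.2 and 10 cells above 5.8. No set of consecutive cells was uniformly high or low.

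Cebpd (ENSMUSG00000071637, chromosome 16, 15887286 to 15891031) was found at FPKM 1 or more in 17 of 17 cells (interval 80.5% to 100%) and at FPKM 10 or more in 14. Cells 1 to 5 held 5.17, 5.99, 4.31, 5.29 and 7.30. Cells 6 to 14 held 7.75, 1.52, 1.45, 4.66, 3.23, 7.74, 6.33, 7.71 and 5.86, and cells 15 to 17 held 3.52, 4.89 and 5.82. Only cells 7, 8 and 10 were under FPKM 10, and the highest values, in cells 6, 11 and 13, lay between 7.71 and 7.75. Its spread, with an SD of 1.97, was below the median SD of 2.16 over all genes detected in at least 9 cells, whereas that of Cebpb was above it.

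Both factors were low together in cells 7 and 8 and high together in cells 6, 11 and 13. Over the 17 cells their Spearman correlation was 0.45 (Pearson 0.55), and it was 0.60 over cells 6 to 14 alone. Cells 12 and 14 broke the pattern, with Cebpd at 6.33 and 5.86 and Cebpb at 1.80 and 0.84. Tissue digestion is known to induce immediate-early genes, and both factors are also known as early-response genes. The 22 immediate-early and heat-shock genes listed were each detected in at least 9 cells, beside 46.9% of all genes. The list was led by Fos (mean 10.03, SD 1.65), Nfkbia (mean 9.33, SD 1.09), Hspa8 (mean 9.01, SD 0.90) and Zfp36 (mean 8.71, SD 1.25). The mean of that list correlated at 0.36 with Cebpd and 0.21 with Cebpb over the 17 cells. Cell 8 had the lowest list mean, 4.37, but cell 7, where both factors were also low, had one of the highest, 8.02. The part of digestion in these levels was not tested.

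Pparg (ENSMUSG00000000440, chromosome 6, 115360951 to 115490399) passed FPKM 1 in 2 of 17 cells (interval 1.46% to 36.4%). It was at 1.02 in cell 11 and 2.56 in cell 16, which is FPKM 1.03 and 4.90. Cell 17 at 0.93, cell 15 at 0.42 and cell 7 at 0.10 were the other values above 0, and the remaining 12 cells were at 0. Of the 5 cells above 0, 3 are cells 15 to 17. Only 227 of the 8431 genes with a row had a lower mean. Leaving out cell 16 leaves 1 cell with the gene detected, and at FPKM 5 there was none. With depth unknown, low expression and a missed transcript cannot be told apart in any single cell.

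Pparg has several start sites, and RefSeq lists 3 windows of 250 bases before a gene start for it. Windows were found for 4 of the 8 genes (Pparg, Cebpb, Plin2 and Cd36). The window furthest downstream is shown because it is the one in which letters known to be read by C/EBP factors occur, while Cebpb and Cebpd were present and Pparg scarce. It lies at chr6:115421816-115422065 (GRCm38.p6, plus strand, up to the base before the start), and capitals mark the matches, which were seen before the window was chosen.
Pparg: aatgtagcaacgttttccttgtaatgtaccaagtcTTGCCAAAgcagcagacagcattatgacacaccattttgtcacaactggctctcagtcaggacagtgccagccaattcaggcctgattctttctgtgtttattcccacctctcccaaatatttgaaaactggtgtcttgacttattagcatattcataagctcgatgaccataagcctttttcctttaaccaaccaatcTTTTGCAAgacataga
The matches to TTGCNNAA, searched on both strands, lie at positions -215 to -208 on the plus strand and -16 to -9 on the minus strand, counted back from the gene start. Of all 32851 RefSeq windows of this length 9.56% hold such a match, and neither of the other Pparg windows nor those of Cebpb, Plin2 and Cd36 did. The direct repeat that PPAR-gamma binds with its partner receptor, AGGTCA written 2 times with any base between, was in none of the 6 windows and in 0.0335% of all windows. Its core AGGTCA was in 4 of the 6 windows (the other two of Pparg, and those of Plin2 and Cd36) and in 4607 of the 32851 windows. These are matches of letters and do not show binding, and the table gives 1 value per gene, so it does not show which start was used.

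Of 18 genes on the C/EBP and PPAR list 12 were measured and 6 were detected in at least 9 cells, a share near the 46.9% of all genes. Ddit3, the stress-induced C/EBP relative also called CHOP, was detected in 16 cells (mean 4.21, SD 2.37), and Cebpz, which has a similar symbol but encodes a protein outside the C/EBP family, in 13 (mean 2.73, SD 1.78). The genes of the sister receptors of PPAR-gamma were detected in few cells too: Ppard passed FPKM 1 in 2 cells and Ppara in 1. Ppard reached 6.03 in cell 17, however, above the highest Pparg value of 2.56. The partner receptor genes Rxra and Rxrb passed it in 4 and 6 cells. The highest Rxra value, 5.85, and the highest Pparg value were both in cell 16, the cell least like the others. The highest Rxrb value, 4.98, was in cell 4. Cebpa, which follows PPAR-gamma in the textbook sequence, had no row and is not analysed here.

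Lpl, which encodes the secreted lipase that frees fatty acids from circulating lipoproteins, lies on chromosome 8 from 68880491 to 68907448 (ENSMUSG00000015568). It was detected in 17 of 17 cells and at FPKM 10 or more in 14. In cells 1 to 5 its levels were 6.28, 4.01, 6.22, 7.27 and 6.35. In cells 6 to 14 they were 4.60, 1.03, 3.83, 1.12, 7.88, 4.62, 6.89, 1.53 and 5.06, and in cells 15 to 17 they were 4.58, 7.45 and 7.89. Cells 7, 9 and 13 stood below all others, between 1.03 and 1.53, and the next cell was cell 8 at 3.83. Those 3 cells lie within cells 6 to 14, where the mean was 4.06, against 5.09 over all cells.

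Plin2, which encodes a coat protein of lipid droplets that is made in many cell types, lies on chromosome 4 from 86648386 to 86670060 (ENSMUSG00000028494). It was detected in 16 of 17 cells and at FPKM 10 or more in 14. Its levels were 6.09, 6.95, 2.62, 1.98 and 7.92 in cells 1 to 5. They were 4.92, 6.03, 5.82, 7.34, 8.88, 3.90, 6.53, 0.84 and 4.39 in cells 6 to 14, and 5.40, 4.92 and 7.35 in cells 15 to 17. The highest of all values of the 8 genes was Plin2 in cell 10, FPKM 470. Cell 13 had the lowest Plin2 value and also little Lpl (1.53), Cd36 (0.47) and Car3 (0.00), and of the 5 lipid genes Fabp4 alone was high in it, at 6.03. Plin2 correlated weakly with the other genes, from -0.22 with Cebpd to 0.32 with Car3 (Spearman, n = 17 cells), and such weak correlations in sparse data carry no finding.

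Fabp4, which encodes a cytosolic fatty acid carrier abundant in fat cells, capillary endothelium and macrophages, lies on chromosome 3 from 10204088 to 10208576 (ENSMUSG00000062515). It passed FPKM 1 in 12 of 17 cells (interval 44.0% to 89.7%) and at FPKM 10 or more in 10. In cells 1 to 5 its levels were 3.69, 7.62, 7.48, 3.39 and 3.54. In cells 6 to 14 they were 0.74, 0.74, 0.00, 0.42, 5.10, 4.75, 2.83, 6.03 and 0.70, and in cells 15 to 17 they were 5.72, 6.52 and 5.69. The cells fell to either side of a gap, with 5 cells (6, 7, 8, 9 and 14) at 0.74 or less and the other 12 at 2.83 or more. All 5 of the low cells lie within cells 6 to 14, where the mean was 2.37, against 3.82 over all cells. The part of what those libraries share was not tested.

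Cd36, which encodes a membrane transporter and scavenger receptor for fatty acids, lies on chromosome 5 from 17781690 to 17888801 (ENSMUSG00000002944). It passed FPKM 1 in 9 of 17 cells (interval 27.8% to 77.0%). Its highest value was 3.02 in cell 16, FPKM 7.12, and its median was 1.06. Cells 1 to 5 held 1.06, 2.29, 1.79, 1.27 and 1.54, so all 5 passed the threshold, at FPKM 1.08 to 3.88. Cells 6 to 14 held 0.00, 0.00, 0.07, 0.00, 1.18, 0.09, 0.51, 0.47 and 0.00, and cells 15 to 17 held 1.19, 3.02 and 1.35. Outside cells 1 to 5 it was detected in 4 of 12 cells, and within cells 6 to 14 in cell 10 only. At FPKM 5 only cell 16 passed. Cd36 also correlated at 0.52 with the number of genes at a cell's lowest value, the most of any of the 8 genes.

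The closest pair among the 8 genes was Fabp4 and Cd36, with a Spearman correlation of 0.79 (Pearson 0.78) over 17 cells. All 9 cells with Cd36 had Fabp4, and the 5 cells without Fabp4 had Cd36 at 0.07 or less. Cells 11, 12 and 13 had Fabp4 from 2.83 to 6.03 with Cd36 at 0.51 or less. The correlation was 0.76 without cell 16, 0.70 over cells 6 to 14 alone and 0.59 with the means of the 3 sets subtracted. Of all pairs among the 3956 genes detected in at least 9 cells, 0.0219% were at or above 0.79, but this pair was singled out as the highest of those compared. Over the 15 pairs of the 6 genes in at least 9 cells the mean was 0.22 (SD 0.26 over pairs), beside 0.00065 (SD 0.26) for all pairs of the 3956 genes. Over cells 6 to 14 alone, where 4 of the 8 genes were detected often enough, it was 0.061.

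**Figure D2:**
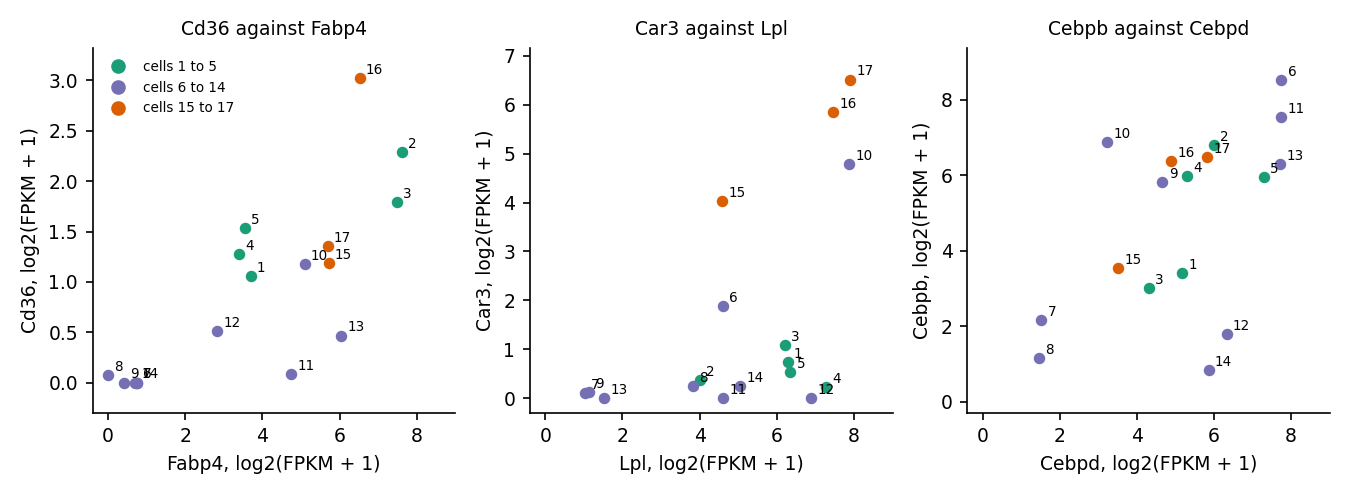
Each point is 1 cell, numbered, and both axes are levels as log2(FPKM + 1); colours mark the sets of consecutive cell numbers. Cd36 is near 0 in the 5 cells with Fabp4 at 0.74 or less, Car3 is above 4 in cells 10, 15, 16 and 17, and Cebpb and Cebpd are both low in cells 7 and 8.

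Car3 encodes a carbonic anhydrase abundant in fat and in slow skeletal muscle, and lies on chromosome 3 from 14863512 to 14872523 (ENSMUSG00000027559). It passed FPKM 1 in 6 of 17 cells (interval 14.2% to 61.7%) and at FPKM 10 or more in 4. Those 4 were cell 10 at 4.78, cell 15 at 4.03, cell 16 at 5.85 and cell 17 at 6.52, and the next were cell 6 at 1.89 and cell 3 at 1.09. The remaining 11 cells were at 0.74 or less. Each of the 4 cells also had Fabp4 at 5.10 or more, Cd36 at 1.18 or more, Lpl at 4.58 or more and Plin2 at 4.92 or more. For Lpl and Plin2 these bounds lie below the medians over all 17 cells, 5.06 and 5.82. Such Lpl and Plin2 levels were therefore not particular to the 4 cells. High Fabp4 did not mean high Car3, since cells 2 and 3 had the highest Fabp4, 7.62 and 7.48, with Car3 at 0.37 and 1.09. Over 17 cells Car3 correlated at 0.53 with Lpl and 0.52 with Cd36 (Spearman), and at 0.24 and -0.17 with the same genes over cells 6 to 14. Cells 15 to 17, which share low values, hold 3 of the 4 cells, and whether Car3 follows the cells or those libraries cannot be told apart. Of the other carbonic anhydrases only 3 were measured: Car13 was detected in 5 cells (highest 6.61, in cell 9), Car11 in 3 and Car4 in 2.

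**Figure D3:**
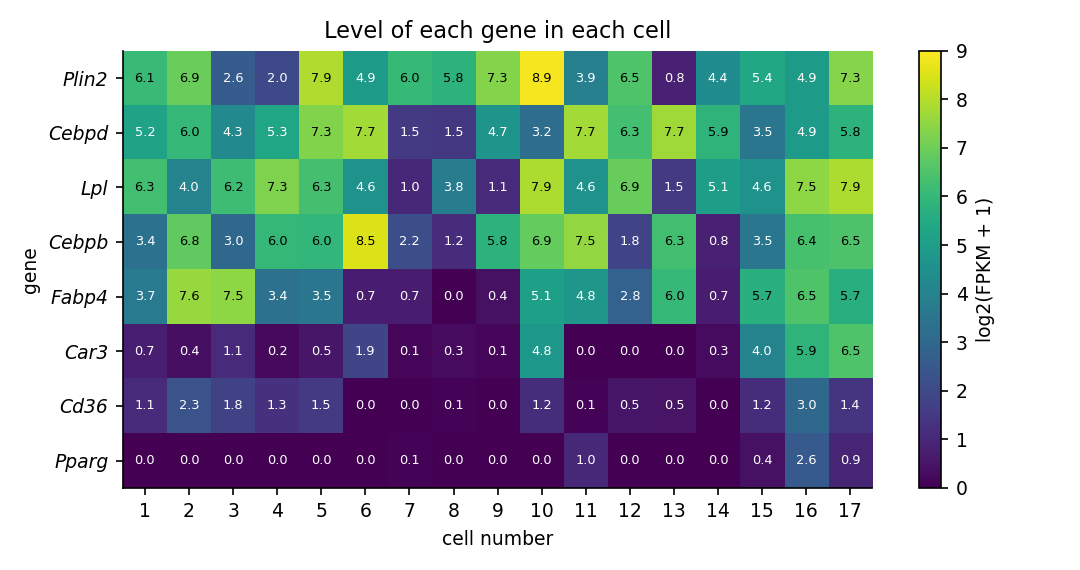
Rows are the 8 genes in order of mean level, columns are the cells by number, and colour and digits give log2(FPKM + 1). Car3 stands out in cells 10, 15, 16 and 17, and cells 7 and 8 are low in Cebpd, Cebpb, Fabp4, Car3, Cd36 and Pparg.

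Most markers of mature fat cells had no row, which does not show whether the cells lacked them. Of 16 adipocyte markers 6 had a row, and the defining genes Adipoq, Plin1, Plin4, Lep and Cidec did not. By a rule of 3 or more markers, 9 cells passed (2, 3, 10, 11, 12, 13, 15, 16 and 17), and 5 passed at FPKM 10. But 4 of the 6 markers are Lpl, Fabp4, Car3 and Pparg, and Lpl alone was in every cell, so the count largely repeats the values above. The other measured markers were Cfd, a complement factor made in fat, and the lipase gene Pnpla2. Cfd was at 9.70 in cell 16, 8.70 in cell 12, 8.37 in cell 11, 6.79 in cell 8 and 5.91 in cell 13, and at 1.37 or less in the other 12 cells. Of the 4 cells with high Car3, cell 16 therefore had high Cfd, whereas cells 10, 15 and 17 had 0.58, 0.00 and 1.37. Pnpla2 was detected in 4 cells, at most at 2.61, in cell 3. Each of the 9 cells also had 12 or 13 of the 13 measured fibroblast markers.

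Other cell types that use these genes had few measured markers. Of 13 endothelial markers Tek, Plvap and Esam were measured, and no cell had all 3. Their summed FPKM ranged from 0.315 to 74.6 over cells. In the cells with the highest Fabp4, Plvap was at 0.77 in cell 2 and 5.92 in cell 3, and Tek was at 0.14 and 0.00. Esam was at 0.48 and 0.35 in them. It passed FPKM 1 in 3 cells, all among the 12 with Fabp4: cell 11 at 2.70, cell 16 at 3.92 and cell 17 at 1.96. Of 13 macrophage and leukocyte markers Csf1r and Cd14 were measured, with a summed FPKM from 0 to 83.6. Only cell 3 had both, Csf1r at 3.52 and Cd14 at 5.64, and in cell 16 they were at 0.08 and 0.00. Of 12 sebaceous gland markers 5 were measured: Mgst1 in 17 cells (mean 9.50, SD 1.62), Soat1 in 10, Scd1 in 9, Fasn in 4 and Krt79 in 1. Their summed FPKM ranged from 46.7 to 2705, and the highest sum was almost all Mgst1 (highest level 11.40, in cell 5). Of 10 keratinocyte markers Krt10 and Krt79 were measured, in 5 cells and 1, with a summed FPKM up to 48.4. Of 11 pericyte and smooth muscle markers 6 were measured, led by Higd1b in 7 cells, and their summed FPKM ranged from 0.110 to 93.0. Cells 1 to 5 each had 4 or 5 of the 6 detected, and cells 6 to 17 had 0 to 2. At FPKM 10 no cell had more than 1. All 7 cells with Higd1b were among the 12 with Fabp4, and its highest value, 4.32, was in cell 16. Of 9 skeletal muscle markers Car3 alone had a row. The part of these cell types in the levels of the 8 genes was not tested.

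The wider machinery of fat cell formation was taken from lists of regulators, inhibitors and lipid enzymes, of which 144 of 212 genes were measured. Of these, 81 (56.2%) were detected in at least 9 cells, beside 46.9% of all genes, and 52 (36.1%) at FPKM 10 or more, beside 26.6%. The median list gene was detected in 9.5 cells. Factors that favour fat cell formation were led by the Krüppel-like factor Klf4 (mean 8.03, SD 0.94), the growth factor Igf1 (mean 6.97, SD 3.22), Ebf1 (mean 6.60, SD 1.41) and Klf9 (mean 5.04, SD 1.35), each in 17 cells, and 11 of 20 measured were in at least 9 cells. Of factors that oppose it, 12 of 19 measured were in at least 9 cells. They were led by Id3 (mean 8.66, SD 1.84) and the corepressor gene Ncor1 (mean 5.23, SD 2.20) in 17 cells, and by Klf2 (mean 5.20, SD 2.11) and F3 (mean 5.05, SD 2.38) in 16. The inhibitor Dlk1, a marker of preadipocytes, was detected in 2 cells and the commitment factor Zfp423 in 1.

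Of 15 measured progenitor markers 13 were in at least 9 cells, beside 46.9% of all genes. Fmo2 and Clec11a were the least detected, in 5 cells each. Cd34 (mean 9.67, SD 0.93), Anxa3 (mean 9.54, SD 2.40), Cd81 (mean 9.11, SD 0.86) and Cd9 (mean 8.56, SD 1.96) were detected in all 17 cells. Lipid droplet genes were in at least 9 cells for 9 of 13, beside the same 46.9%. These were led by the caveolin gene Cav1 (mean 7.36, SD 1.69) in 17 cells, then Plin2 in 16, the droplet coat gene Plin3 (mean 4.42, SD 1.98) in 15 and the monoglyceride lipase gene Mgll (mean 5.11, SD 3.27) in 13. Uptake genes were in at least 9 cells for 12 of 20, a share nearer to that 46.9%. The acyl-CoA binding protein gene Dbi (mean 9.05, SD 1.77), the lysosomal cholesterol carrier gene Npc2 (mean 6.73, SD 0.90) and the lipoprotein receptor gene Lrp1 (mean 4.55, SD 1.37) were detected in all cells.

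Lipid synthesis genes were in at least 9 cells for 6 of 20 measured, beside 46.9% of all genes, and at FPKM 10 or more in as many for 1 of 20, beside 26.6%. Elovl1 (mean 5.28, SD 2.54), a fatty acid elongase, was in 17 cells, Agpat3 and Scd2 were in 15 each and Acly in 14. Fasn, the fatty acid synthase itself, was detected in 4 cells. Fatty acid oxidation had 9 of 16 in at least 9 cells, beside the same 46.9%. Its leading genes were Etfb (mean 9.04, SD 0.88) and Etfa (mean 5.80, SD 1.60), the subunits of an electron carrier, in 17 cells, then Hadhb in 15 and Acadvl in 13. Of 7 measured adipokine and mature fat cell genes 4 were in at least 9 cells, again beside 46.9%. These were the adiponectin receptor gene Adipor1 in 16 cells, Nampt in 14, Serpina3n in 12 and Rbp4 in 11. The lists share members and differ in how many genes were measured, so their counts do not rank the processes.

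**Figure D4:**
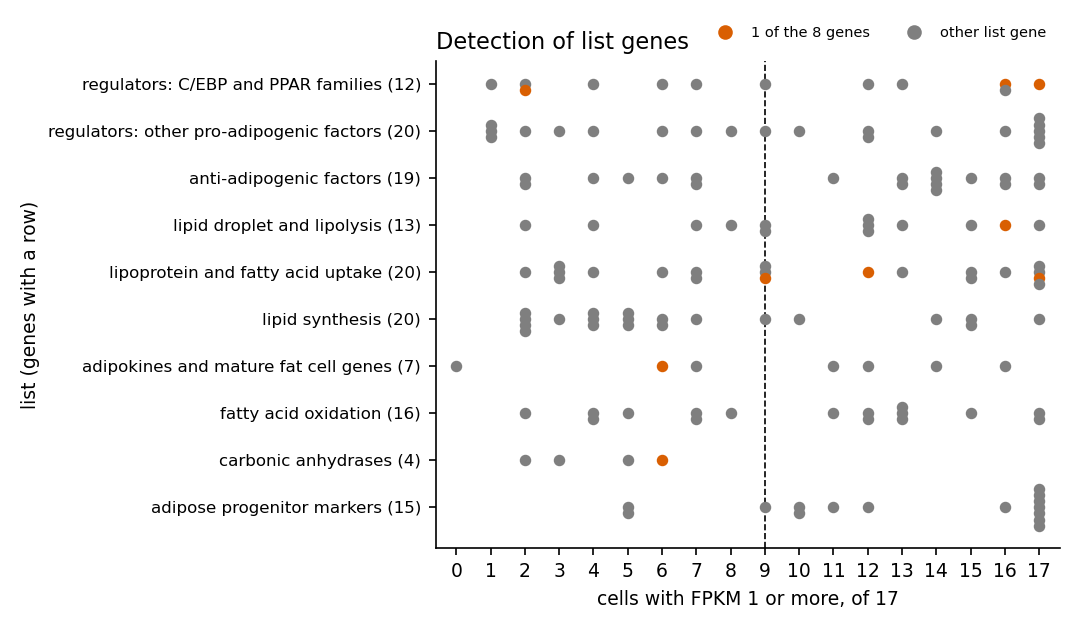
Each point is 1 gene with a row, placed by the number of cells, of 17, in which it was at FPKM 1 or more; orange points are the 8 genes, rows are lists with the number of measured genes, and the dashed line marks 9 cells. Most lipid synthesis genes lie left of the line and most progenitor markers to the right of it, and some genes stand in more than 1 list.

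The genes whose pattern over the 17 cells was most like each of the 6 widely detected genes were sought among the 3956 genes in at least 9 cells, by Spearman correlation. For Cebpb they were Ptpn11 (0.85), Foxp1 (0.84) and Kdm6b (0.80). For Cebpd they were Iah1 (0.80), Hint2 (0.79) and Tsc22d1 (0.74), and for Lpl they were Inmt (0.76), Asna1 (0.74) and Igfbp3 (0.71). Plin2 was most like Aimp1 (0.78), Decr1 (0.75) and Wdr26 (0.74). Fabp4 was most like Cpz (0.80), Cd36 (0.79) and Klhl13 (0.77), and Cd36 was most like Ep400 (0.80), Fabp4 (0.79) and Rin2 (0.79). For the median gene of the 3956 the highest such correlation with any other gene was 0.79, with 0.72 and 0.88 at the 5th and 95th percentiles, and the closest partner of each of the 6 lay within that range. Of the 18 partners 9 stayed among the 3 most alike by Pearson correlation, 10 without cell 16, 4 with set means subtracted, 2 without cells 1 to 5 and 0 over cells 6 to 14 alone.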

How the data were processed

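RNA was measured in 17 single Tomato-positive cells, digested from back skin with elastase and collagenase, sorted and picked singly, with SMART-Seq v4 3' DE libraries finished by Nextera XT, per the labels' protocols. TopHat2, Cufflinks and GRCm38 appear in the submitters' processing notes; their versions were not given in the sources used here. Deposited values were read as log2 of FPKM plus 1 with the form that quantile normalisation gives; neither the base nor the constant is stated. With base 2, cells summed to 592939 to 592955 FPKM. A symbol with several rows was taken as its row with the highest mean. Of the rows 99.9% matched GENCODE M21, which gave coordinates and exon unions. Nothing was tested, because cells without named animals are 1 sample: levels, exact Clopper-Pearson intervals and rank correlations are descriptions. Named genes are the 8, up to 4 per list by cells detected, and the 3 most alike per gene in at least 9 cells. Others were named after their values were seen (Ppard, Ppara, Rxra, Rxrb, Dlk1, Zfp423, Fasn, Pnpla2, Fmo2, Clec11a). The members and lists were chosen with earlier results of these data known. The correlation ranking was tested on simulated data with planted partners much more alike than those reported, which checks the computation and not the partners named. Alternatives covered thresholds, pseudocount, rescaling, gene length, correlation measure and omitted cells. Computation used scipy 1.17.1, pandas 2.3.3 and numpy 2.4.6 under Python 3.11.15, with figures from matplotlib 3.10.9.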

Additional observations from a re-analysis of the deposited data

How the results depend on the processing

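No paired analysis was possible because all cells form 1 group. The median number of the 8 genes detected per cell, 6, was 4 at FPKM 10 and 4 over cells 6 to 14. Wider-list genes in at least 9 cells, 81, were 52 at FPKM 10 and 139 above the lowest value. Cells with 3 or more adipocyte markers, 9, were 5 at FPKM 10 and 17 above the lowest value. Of the 18 most alike genes 9 stayed by Pearson correlation, 4 with set means subtracted, 10 without cell 16, 2 without cells 1 to 5 and 0 over cells 6 to 14. The number of the 8 genes in at least 9 cells, or the same share of the cells kept, stayed between 4 and 7, and the mean pair correlation between 0.061 and 0.24. Cells with Car3 numbered 14 above the lowest value, and cells with Pparg 5. With a pseudocount of 0.1 the means of Pparg and Cd36 were -2.42 and -0.64, and with 10 those of Pparg, Car3 and Cd36 were 3.37, 3.91 and 3.49. Rescaling changed none of these counts, since the cells already had nearly one sum. Apart from what each setting fixes, the cause was not tested. Read depth is unknown and sets a limit that cannot be stated.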
